A study of Mus musculus with 8 samples.

Results

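The genes described here encode the proteins of the cytosolic ribosome. They were taken by gene name (Rpl or Rps followed by a number, with the usual a, x or l endings, Rplp0 to Rplp2, and Rpsa), as protein coding genes with a mean of at least 100 normalised reads over all libraries. Of 20254 genes measured, 81 names matched, 80 of these were protein coding and 77 passed the minimum, 46 of the large and 31 of the small subunit. The RNA came from sorted progenitors of the nephron in embryonic mouse kidneys, the self-renewing cells around the ureteric bud tips that give rise to the nephrons. Kidneys were taken at embryonic day 17.5 from animals of the strain Six2EGFPcre, in which the promoter of Six2, a transcription factor of these progenitors, drives a GFP and Cre fusion, and GFP-bearing cells were sorted. In 4 control libraries the genotype was VHLNP+/- and in 4 mutant libraries VHLNP-/-. Both groups therefore carry the Cre transgene and at least 1 deleted allele of Vhl in the progenitors, and deletion is limited to cells that express Six2 and their descendants. Vhl encodes the substrate receptor of the ubiquitin ligase that marks hypoxia-inducible factors for breakdown. The labels do not say whether each library is 1 embryo, 1 litter or a pool, so the spread between libraries may be technical in part.

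As background, a ribosome is made of 4 ribosomal RNAs and mostly 1 copy of each of its proteins, so the cell needs the proteins in nearly equal numbers. Most of their messenger RNAs begin with a C followed by a run of pyrimidines, the terminal oligopyrimidine tract, through which Larp1 and the mTOR pathway set how actively they are translated. The genes are among the most highly transcribed in dividing progenitors, and a shortage of single ribosomal proteins is known to cause blood and developmental disorders.

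The start regions of 6 genes described below are shown, some with higher and some with lower values in the mutants. Fau, Rpl11 and Rpl5 had higher values in the mutants and Rplp2, Rps9 and Rps25 lower ones. Each line runs 5′ to 3′ on the gene's strand, from 60 bases before to 20 bases after the annotated start, from RefSeq on build GRCm38.p6. Capitals mark 2 things, ACGTG or its reverse complement (the core of the site that hypoxia-inducible factors bind) and, around the start, a pyrimidine run of at least 5 bases that begins with C.
Fau: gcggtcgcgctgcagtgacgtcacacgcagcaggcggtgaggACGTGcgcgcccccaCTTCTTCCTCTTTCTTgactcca
Rpl11: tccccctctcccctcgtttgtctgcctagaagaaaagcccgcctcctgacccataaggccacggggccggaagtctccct
Rpl5: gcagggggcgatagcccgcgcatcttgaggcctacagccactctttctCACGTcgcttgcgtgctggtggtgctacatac
Rplp2: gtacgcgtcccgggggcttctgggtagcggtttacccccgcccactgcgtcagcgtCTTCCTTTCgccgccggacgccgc
Rps9: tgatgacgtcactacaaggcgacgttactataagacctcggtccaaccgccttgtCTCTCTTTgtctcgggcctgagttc
Rps25: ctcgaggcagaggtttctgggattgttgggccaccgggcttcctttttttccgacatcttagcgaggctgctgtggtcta
These stretches are chr19:6057887-6057966 for Fau, chr4:136053374-136053453 on the minus strand for Rpl11, chr5:107900468-107900547 for Rpl5, chr7:141447591-141447670 for Rplp2, chr7:3703981-3704060 for Rps9 and chr9:44407654-44407733 for Rps25. The pyrimidine run that begins within 10 bases of the start was 16 bases long in Fau, 9 in Rplp2 and 8 in Rps9. ACGTG or its reverse complement also occurs outside the stretches shown, 93 bases before the start in Rps25 and, as a further match, after the stretch in Rpl5. Of the 77 ribosomal protein genes, 58 had a promoter in the RefSeq table. On the gene's strand, a run of at least 5 pyrimidines beginning with C within 10 bases of the start was found in 34 of the 58 (58.6%), against 32.6% of all 27025 genes with a promoter there and 34.9% of the 11425 that were also tested here. Between 250 bases before and 50 after the start, on either strand, ACGTG lay in 19 of the 58 (32.8%, against 21.8% of all and 28.0% of tested genes) and GCGTG in 33 (56.9%, against 35.2% and 54.2%). CCGGAAG, a core of Ets family sites, lay in 24 of the 58 (41.4%) and in 9.9% of all and 17.9% of tested genes. Matches of ACGTG and GCGTG may overlap each other. These are matches of letters, and binding was not measured.

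Totals of reads assigned to genes were between 37.3 and 46.5 M (mega) per library, so counting error is small for the ribosomal protein genes and the spread between libraries sets the precision. The deleted gene checks the labels. Vhl had 1134, 1379, 1208 and 1180 normalised reads (reads divided by the library's size factor) in controls 1 to 4 and 320.2, 284.7, 331.2 and 335.9 in mutants 1 to 4. Every mutant lay below every control, with a log2 difference of -1.94 (SE 0.08, limma adjusted p = 4.22e-08) and an exact permutation p of 0.0286, two-sided, the smallest that 70 relabellings can give. All 10 progenitor markers fixed for the check were detected, at a summed level of 113432 to 124622 normalised reads in the controls and 111730 to 120786 in the mutants. Of these 10, Gdnf rose (log2 0.39, adjusted p = 0.0101), and Meox1 (log2 -0.40, adjusted p = 0.00396) and Osr1 (log2 -0.25, adjusted p = 0.0404) fell. The Osr1 call was lost when any 1 library other than control 1 or mutant 3 was left out (the highest adjusted p was 0.138). In bulk RNA, fewer cells of a type and less RNA per cell cannot be told apart.

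Ribosomal protein transcripts moved together from library to library, in both groups. They took 7.17, 8.40, 7.78 and 8.05% of all reads in controls 1 to 4 and 7.49, 7.18, 6.71 and 7.38% in mutants 1 to 4. The 95% Wilson intervals of these shares are 0.0148 to 0.0168 percentage points wide and cover counting error only. The mean share was 7.85% ± 0.52 in the control and 7.19% ± 0.345 in the mutant group (SD over 4 libraries each). The groups overlapped, since control 1 lay below mutants 1, 2 and 4. On the log2 scale, the median gene deviated from its own mean over the 8 libraries by -0.12, 0.16, 0.08 and 0.10 in controls 1 to 4 and by 0.01, -0.04, -0.18 and -0.01 in mutants 1 to 4. Control 1 was the lowest control for 74 of the 77 genes, and control 2 was the highest control for 72. Mutant 3 was the lowest mutant for 69 genes, and control 1 lay below mutant 1 for 76.

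**Figure D1:**
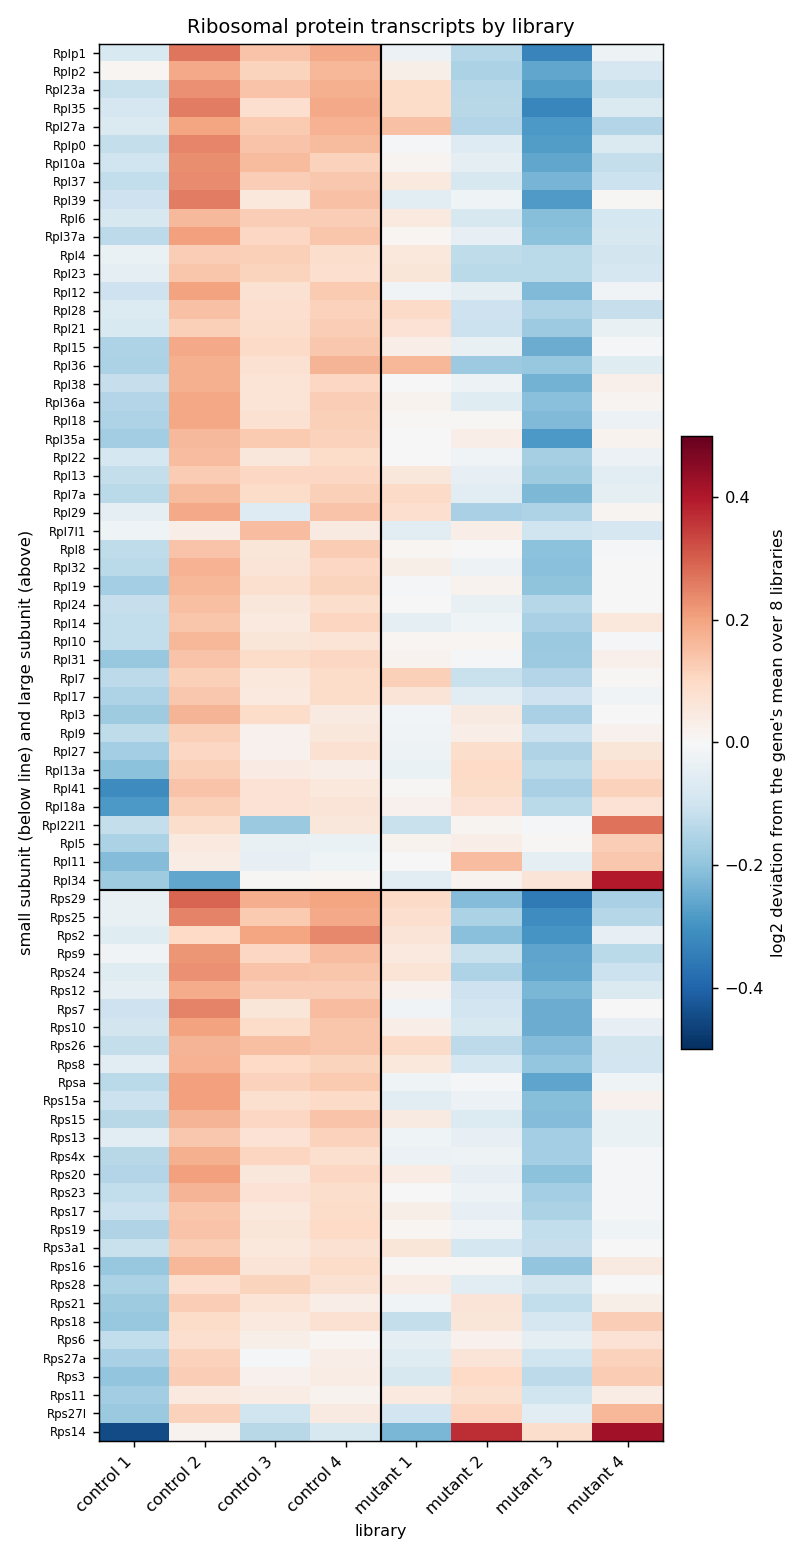
Heat map of 76 of the 77 ribosomal protein genes (rows, large subunit above the line and small subunit below, each sorted by the difference between the groups) in 8 libraries (columns); colour is the log2 deviation of log2(normalised reads + 1) from the gene's mean over the libraries. Nearly whole columns share a colour, with control 1 and mutant 3 low and control 2 high, and Rps14 departs from the other genes.

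Both subunits followed the same library pattern. The median deviation of large and small subunit genes differed by at most 0.01 in any library as printed, for example 0.16 and 0.17 in control 2 and -0.18 and -0.19 in mutant 3. The ratio of large subunit to small subunit reads was 1.398 ± 0.00129 in the control and 1.396 ± 0.02 in the mutant group (SD over 4 libraries each). The 4 controls lay between 1.397 and 1.400. The mutants were more spread, at 1.425 in mutant 1, 1.389 in mutant 2, 1.391 in mutant 3 and 1.379 in mutant 4. Mutant 1 thus lay above and the other mutants below all controls. Among the small subunit reads are those of Rps14, at 37589, 56863, 46784 and 58917 normalised reads in mutants 1 to 4. Its control mean was 39630, and its part in the ratio was not tested.

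Between the groups, ribosomal protein transcripts were slightly lower in the mutants on average, and no single one passed the test. By limma with Benjamini-Hochberg adjustment over all 15381 genes tested, 0 of 77 were called higher and 0 lower, where 5.4% of all tested genes were called higher and 3.03% lower. At an unadjusted p under 0.05, 17 of the 77 were lower (10 large and 7 small subunit genes) and 0 higher, against 11.2% of all tested genes lower and 12% higher. The median log2 difference, mutant minus control, was -0.11 in the large and -0.11 in the small subunit, and -0.01 over all tested genes. Estimates were below 0 for 64 of the 77 genes, 39 of 46 large and 25 of 31 small, against 7916 of all 15381 tested. Because the 77 genes moved together from library to library, these are not 77 separate observations. Their estimates ran from -0.32 for Rps29 to 0.32 for Rps14. In 0 of the 77 did every mutant lie below every control or every mutant above every control, whereas 6.72% of all tested genes had all mutants below and 8.54% all mutants above.

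**Figure D2:**
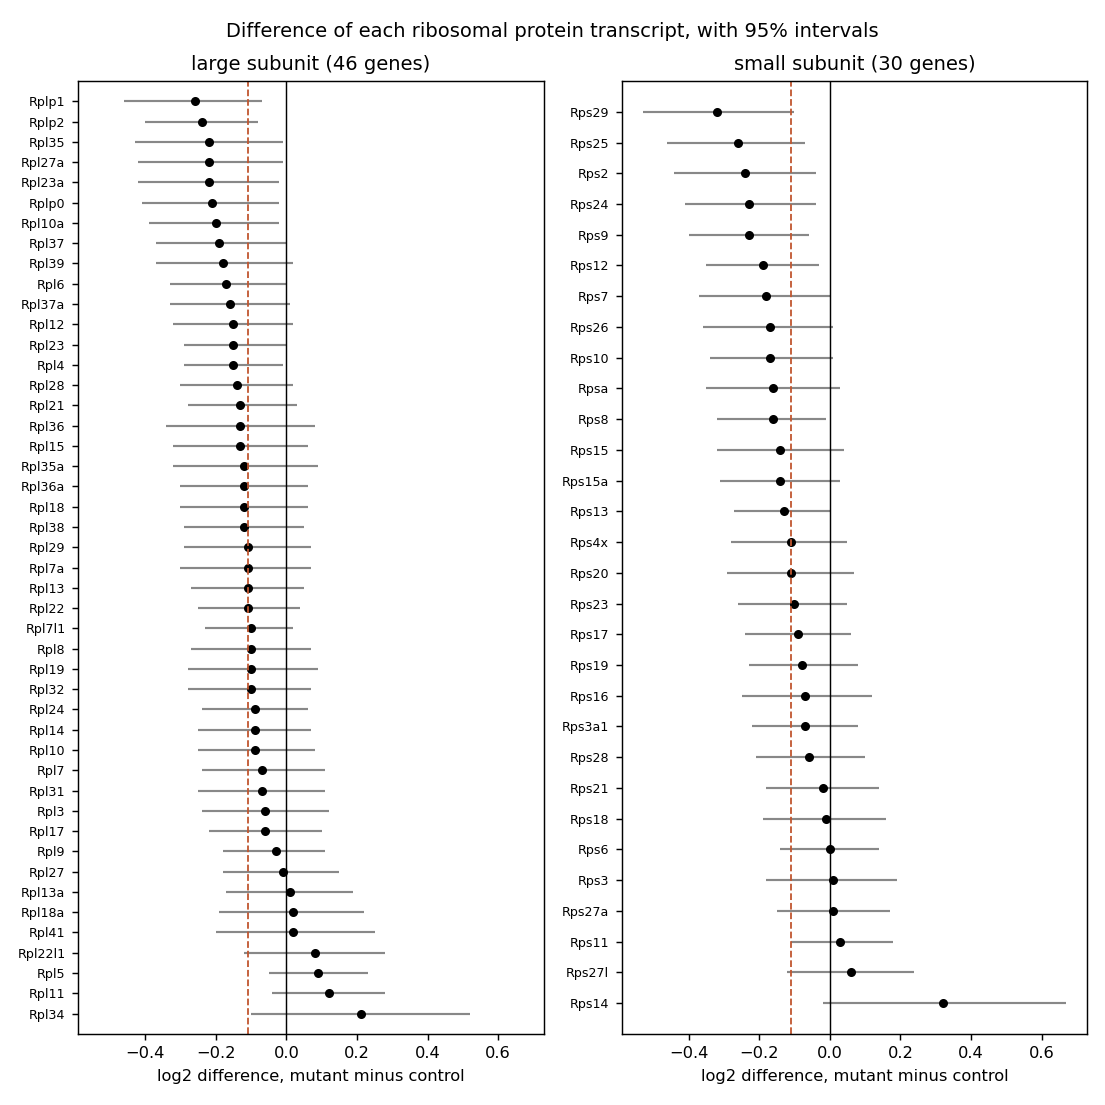
Log2 difference of normalised reads, mutant minus control, of the 46 large subunit genes (left) and 30 of the 31 small subunit genes (right); points are limma estimates from 4 control and 4 mutant libraries, bars are 95% confidence intervals, the solid line is 0 and the dashed line is the subunit's median of -0.11. Most estimates lie between -0.32 and 0, and Rpl34 and Rps14 have the highest.

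The size of the difference and the number of calls depended on single libraries. The median difference of the 77 was -0.17 without control 1, -0.07 without control 2 and -0.06 without mutant 3, and calls appeared when either of 2 libraries was left out. Without control 1, in which the transcripts were low, 13 were called lower, 7 of the large and 6 of the small subunit, with a background of 4.24%: Rplp0, Rplp1, Rplp2, Rpl10a, Rpl23a, Rpl37, Rpl37a, Rps2, Rps9, Rps12, Rps24, Rps25 and Rps29. Without mutant 1, 5 were called lower (Rplp2, Rpl27a, Rps9, Rps25 and Rps29, background 3.04%) and Rps14 was called higher (background 5.57%). Leaving out any of the other 6 libraries called none. In the authors' deposited table, from a count model, 5 of the 77 had an adjusted p under 0.05 and all were lower, with a background of 5.35% lower and 7.12% higher. These were Rplp2 (adjusted p = 0.0114), Rps29 (0.0196), Rps9 (0.0282), Rplp1 (0.0324) and Rps25 (0.0366). Limma-voom on whole reads with another scaling called 0, where 5.07% of all tested genes were called higher and 3.04% lower.

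The acidic stalk of the large subunit had the lowest differences of any functional group that was described. The stalk has 3 genes, and the groups were chosen with earlier results known, so this rank is a description only. Rplp0 anchors the stalk at the factor-binding site, and Rplp1 and Rplp2 form the flexible pairs that recruit elongation factors. Rplp2 (chr7:141447370-141451585, mm10) had 30859, 35000, 33171 and 34399 normalised reads in controls 1 to 4 and 31263, 27454, 25630 and 28902 in mutants 1 to 4. Mutant 1 lay just above control 1, and the other 3 mutants lay below all controls. Its mean was 33357 ± 1831 (SD, n = 4) for controls and 28312 ± 2380 for mutants, a log2 difference of -0.24 (SE 0.07, limma adjusted p = 0.0656). Rplp1 (chr9:61913284-61914542) had 46179, 58502, 53716 and 55516 in controls and 47716, 44065, 38692 and 47828 in mutants, and control 1 again lay within the mutants' range. The difference of Rplp1 was -0.26 (SE 0.09, adjusted p = 0.104) and that of Rplp0 -0.21 (SE 0.09, adjusted p = 0.173), from 116473 ± 12032 to 100349 ± 7952 (SD, n = 4 each). All 3 stalk genes had an unadjusted p under 0.05 and none passed the adjusted test.

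Other large subunit genes with low values were Rpl10a, whose protein forms the other, mobile stalk near the exit site of tRNA, and Rpl23a, whose protein lies at the mouth of the polypeptide exit tunnel. Rpl10a had a difference of -0.20 (SE 0.08, adjusted p = 0.168), from 45297 ± 4336 to 39295 ± 3161 (SD, n = 4 each). Rpl23a had -0.22 (SE 0.09, adjusted p = 0.180), and Tlcd1 lies antisense to it. Of the 8 tested genes of the exit tunnel and its rim, Rpl4, Rpl17, Rpl39, Rpl19, Rpl22, Rpl23a, Rpl31 and Rpl35, 0 were called in either direction, and their median was -0.13. Rpl26 belongs to this list and was not analysed here.

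In the small subunit, Rps29 (chr12:69157722-69159186), a small zinc-binding protein of the head, had the lowest difference of all 77. Its values were 26316, 33038, 30596 and 30902 in controls 1 to 4 and 28858, 23176, 21102 and 24125 in mutants 1 to 4. Mutants 2, 3 and 4 lay below every control, and mutant 1 lay above control 1. The mean was 30213 ± 2816 (SD, n = 4) for controls and 24315 ± 3281 for mutants, a log2 difference of -0.32 (SE 0.10, adjusted p = 0.0729). Rps25 (chr9:44407139-44410427), which several viral and cellular messages need for initiation without a cap, had 31704, 38639, 35601 and 37085 in controls and 34537, 29196, 26264 and 29462 in mutants. The pattern was the same, with mutant 1 inside the control range and the other 3 below it, and the difference was -0.26 (SE 0.09, adjusted p = 0.0995). Ccdc84 lies antisense to Rps25, and because no source used here says whether reads were counted by strand, reads of the pair cannot be told apart; the same holds for Rpl23a, Rpl5, Rpl22l1 and Rpl30.

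Rps9 (chr7:3703993-3706897), an early-binding protein of the small subunit body, had 55860, 65853, 60834 and 62902 in controls and 58456, 52378, 47144 and 51567 in mutants. Its difference was -0.23 (SE 0.08, adjusted p = 0.0979), and mutant 1 was again the one mutant within the controls. Rps24 had -0.23 (SE 0.08, adjusted p = 0.130) and Rps12 -0.19 (SE 0.07, adjusted p = 0.137). Rps2, which lines the entry channel of messenger RNA together with Rps3, had -0.24 (SE 0.09, adjusted p = 0.144), whereas Rps3 had 0.01 (SE 0.08, adjusted p = 0.972). Partners within 1 site of the ribosome therefore had different estimates, though neither passed the test and their difference was not tested.

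**Figure D3:**
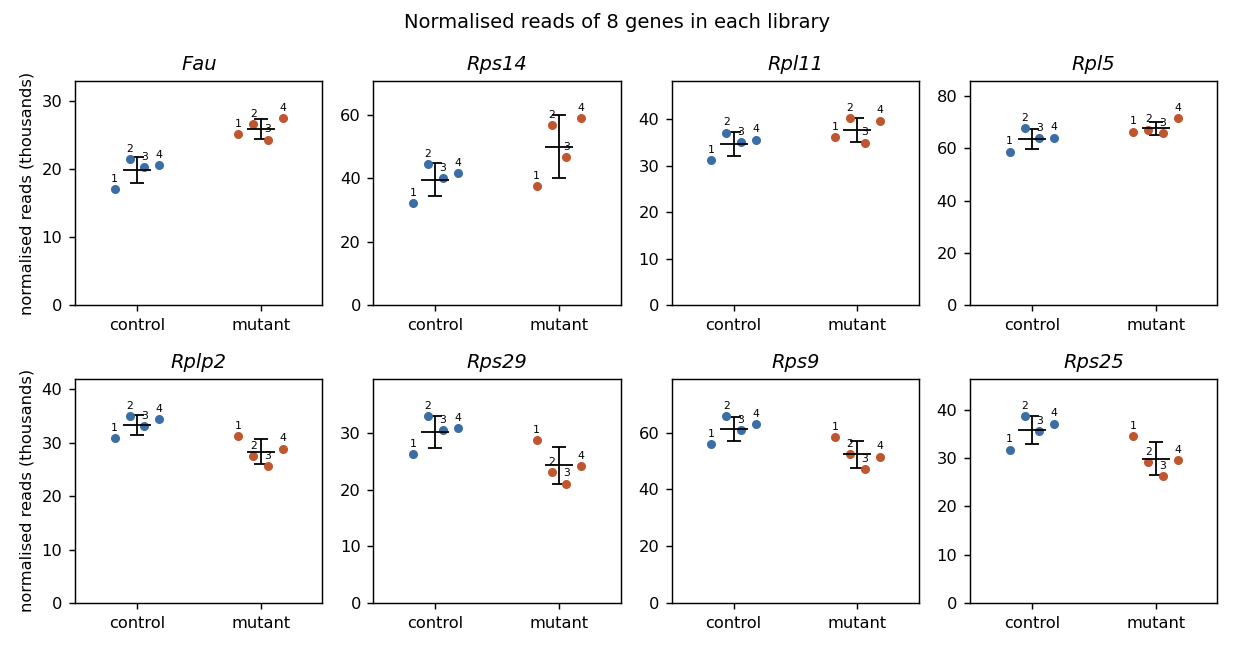
Normalised reads divided by 1000 (axes start at 0) of Fau, Rps14, Rpl11, Rpl5, Rplp2, Rps29, Rps9 and Rps25 in 4 control (blue) and 4 mutant (orange) libraries; digits are replicate numbers, the horizontal mark is the mean and the bars are 1 SD. The groups are apart for Fau, while for Rps29, Rps9 and Rps25 mutant 1 sits with the controls.

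A few genes had higher values in the mutants. Rps14 (chr18:60747098-60778546), a protein of the small subunit platform whose loss of 1 copy is known from a form of myelodysplastic anaemia, is named after its values were seen. It had 32307, 44538, 39989 and 41687 in controls and 37589, 56863, 46784 and 58917 in mutants. Mutants 2, 3 and 4 lay above every control and mutant 1 below controls 2, 3 and 4. The mean was 39630 ± 5231 (SD, n = 4) for controls and 50038 ± 9849 for mutants, a log2 difference of 0.32 (SE 0.15, adjusted p = 0.243). The authors' deposited table gives Rps14 a log2 value of 0.34 with an adjusted p of 0.0879.

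Rpl5 and Rpl11 form, with the 5S ribosomal RNA, a particle that joins the large subunit as a unit and that is known to bind Mdm2 when ribosome assembly is disturbed. Rpl11 (chr4:136028265-136053428) had 31155, 37146, 35131 and 35617 in controls and 36112, 40197, 34992 and 39726 in mutants, a difference of 0.12 (SE 0.07, adjusted p = 0.358). Rpl5 (chr5:107900502-107909005) had 58758, 67846, 63953 and 64130 in controls and 66424, 67174, 65883 and 71479 in mutants, a difference of 0.09 (SE 0.06, adjusted p = 0.420). The groups overlapped for both genes, and both ran against the lower values of most other ribosomal protein genes. Rpl5 shares 93.8% of its 50-base stretches with other annotated genes, among them Fam69a on the opposite strand, so its counts are uncertain. The same limit holds for Rpl11 (62.2%). It also holds for genes with lower values in the mutants, such as Rpl10a (88.1%), Rpl23a (85.7%), Rplp2 (65.1%) and Rps25 (61.2%). Other genes with lower values share less, such as Rplp0 (41.8%), Rps29 (35.8%) and Rps24 (19.1%). The share of Rps24 rests on a transcript model of 1613 bases, of which 399 are coding.

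Several well-studied genes showed little difference. Rps6, the substrate of S6 kinase and a common readout of mTOR activity, had 53743 ± 3246 (SD, n = 4) for controls and 53723 ± 2134 for mutants, a log2 difference of 0.00 with a 95% interval of -0.14 to 0.14. Rps27a, made as a fusion with ubiquitin, had 0.01 (interval -0.15 to 0.17). Rpl13a, which has a known role outside the ribosome in silencing inflammatory messages, had 0.01 (interval -0.17 to 0.19). Rps19, the gene first tied to Diamond-Blackfan anaemia, had -0.08 (interval -0.23 to 0.08). Rpl10 and Rps4x, both on chromosome X, had -0.09 (interval -0.25 to 0.08) and -0.11 (interval -0.28 to 0.05). Changes within these intervals could not be told from 0 with 4 libraries a group.

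The gene that did pass the test lies outside the naming rule. Fau (chr19:6057844-6059524) encodes a ubiquitin-like protein fused to a small subunit ribosomal protein. It had 16999, 21460, 20311 and 20576 normalised reads in controls 1 to 4 and 25131, 26598, 24295 and 27413 in mutants 1 to 4. Every mutant, mutant 1 included, lay above every control. The mean was 19837 ± 1955 (SD, n = 4) for controls and 25859 ± 1407 for mutants, a 1.31-fold rise (log2 0.39, SE 0.08, adjusted p = 0.00988). The authors' deposited table gives 0.38 with an adjusted p of 3.21e-05. The call held without any 1 library (adjusted p between 0.00816 and 0.0435) and was lost without control 3 and mutant 2 together (adjusted p = 0.0611). Fau shares 83.5% of its 50-base stretches with Gm9843, a gene not analysed here, so reads of the pair may have been split or merged.

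Other ribosomal protein genes left out by the rule did not pass, among them 3 given here. Gnb2l1, which encodes Rack1, the signalling scaffold of the small subunit, had -0.20 (SE 0.09, adjusted p = 0.200). Rpl36al had -0.04 (SE 0.07, adjusted p = 0.794) and Rps4l 0.15 (SE 0.10, adjusted p = 0.393). The name of Rps4l does match the rule, but it was left out because it is not listed as a protein coding gene.

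Taking out the shared library pattern changed which genes came nearest to the threshold. Libraries were centred on the median ribosomal protein gene, a setting chosen after seeing the data, which moves the median difference of all tested genes from -0.01 to 0.07 (log2) and calls 4.09% of them higher and 0.579% lower. On this scale Fau deviated by -0.26, -0.25, -0.20 and -0.23 in controls 1 to 4 and by 0.16, 0.25, 0.26 and 0.27 in mutants 1 to 4, a difference of 0.47 (SE 0.05, adjusted p = 2.35e-04). Rpl11 had -0.06, -0.14, -0.09 and -0.11 in controls and 0.01, 0.17, 0.11 and 0.12 in mutants. Its groups did not overlap, and with 0.20 (SE 0.05, adjusted p = 0.0498) it was the one gene of the 77 called. That call is just under the threshold, and the limit from shared sequence given above holds for Rpl11. Rpl5 had 0.17 (SE 0.05, adjusted p = 0.0878). Genes with low values moved both ways. Rplp2, Rps29, Rps9 and Rps25 moved farther from the threshold, with adjusted p of 0.185, 0.112, 0.184 and 0.168. Rplp1 moved nearer, from 0.104 to 0.0682, and so did Rplp0, from 0.173 to 0.118.

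For 3 genes given here, mutant 1 departed from the other mutants in this relative measure. Rps14 had a relative deviation of -0.22 in mutant 1, within the -0.29 to -0.16 of the controls, and 0.38, 0.24 and 0.41 in mutants 2 to 4. Rps29 had 0.11 in mutant 1, within the 0.10 to 0.14 of the controls, and -0.20, -0.20 and -0.17 in the others. Rps25 had 0.09 in mutant 1 and -0.14, -0.16 and -0.16 in mutants 2 to 4, with controls at 0.12, 0.07, 0.08 and 0.09. For these 3 genes mutant 1 thus sat with the controls, while Vhl in mutant 1 was as low as in the other mutants (320.2 normalised reads). Not every gene had this pattern. Rplp1 had -0.02 in mutant 1, below its controls at 0.08 to 0.10 and near mutant 4 at -0.04.

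**Figure D4:**
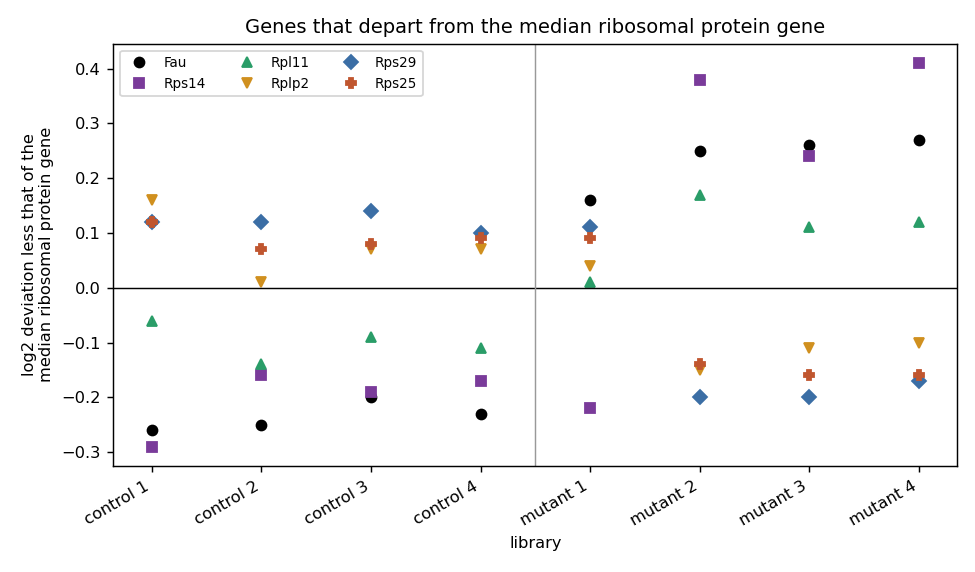
Log2 deviation of 6 genes from their own mean, less the deviation of the median ribosomal protein gene in the same library (0 line), in 4 control and 4 mutant libraries. Mutant 1 lies with the controls for Rps14, Rps29 and Rps25, whereas Fau is above all controls in each mutant.

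The library pattern was not limited to ribosomal protein genes. Their transcripts are short, with a median annotated length of 751 bases and 59 of 77 under 1000, against a median of 2828 bases over the tested protein coding genes. The other 939 tested genes with transcripts under 1000 bases had median deviations of -0.07, 0.07, 0.02 and 0.06 in controls 1 to 4 and 0.04, -0.02, -0.10 and 0.02 in mutants 1 to 4. The 991 genes with transcripts of at least 7000 bases had 0.05, -0.05, -0.01 and -0.05 in controls and -0.03, 0.02, 0.10 and -0.02 in mutants. Short transcripts were thus low in control 1 and mutant 3, as the ribosomal protein genes were, and long ones high. When libraries were centred on the other short genes, also a setting chosen after seeing the data, Rplp1, Rplp2, Rps9 and Rps29 were called lower, with a background of 1.38%. The same setting brought the median difference of the 77 genes from -0.11 to -0.06. Centring on the ribosomal protein genes gave -0.03, but that setting brings their median near 0 by construction. The part of transcript length in the differences was not tested further.

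**Figure D5:**
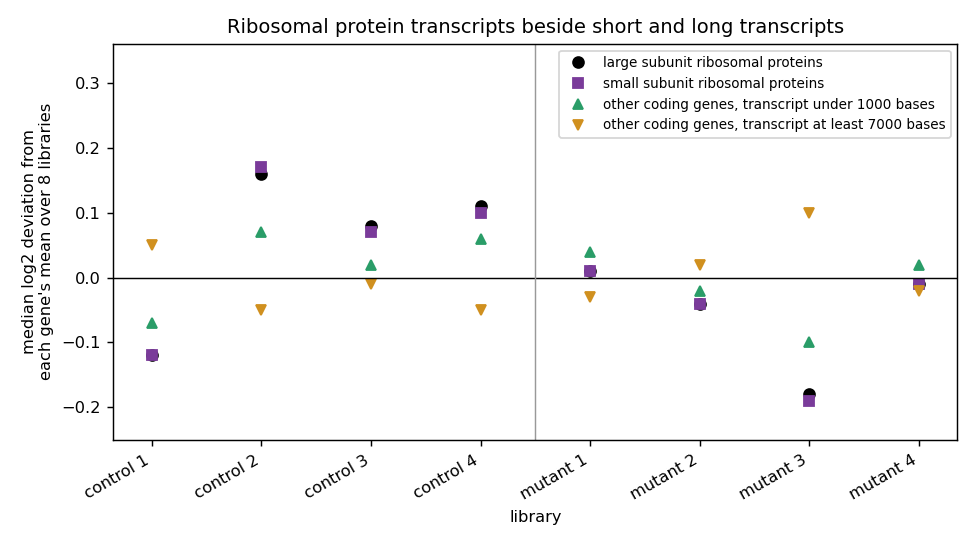
Median log2 deviation from each gene's mean over 8 libraries, for 46 large subunit and 31 small subunit ribosomal protein genes, 939 other protein coding genes with transcripts under 1000 bases and 991 with transcripts of at least 7000 bases, by library. Ribosomal protein genes and other short transcripts are low in control 1 and mutant 3, where long transcripts are high.

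Mitochondrial ribosomal protein genes, which serve the separate ribosome of that organelle, gave a similar picture. Of 77 tested, 0 were called higher and 2 lower, where 5.4% of all tested genes were called higher and 3.03% lower. Their median was -0.11, and 72 had estimates below 0, against 7916 of all 15381 tested genes. Their library medians were -0.06, 0.09, 0.09 and 0.10 in controls and 0.00, -0.01, -0.18 and -0.02 in mutants, with mutant 3 the lowest here too. Markers of other cell types were detected as well. Of 10 podocyte markers 1 was called higher (Plce1, a call that ended when control 4, mutant 3 or mutant 4 was left out, the highest adjusted p being 0.0774) and 1 lower, and their summed level was 26520 to 34720 normalised reads in controls and 23678 to 26456 in mutants. Of 10 endothelial markers 1 was called higher (Plvap, lost without mutant 4 at adjusted p = 0.053), with sums of 1440 to 2764 in controls and 2035 to 2610 in mutants. None of the 10 stromal, 10 leukocyte, 3 tested erythroid, 10 ureteric bud or 10 tubule markers was called. Stromal sums ran from 33249 to 73334 in controls and 28560 to 58149 in mutants, leukocyte sums from 609 to 1148 and 682 to 1112, erythroid sums from 134 to 334 and 99.7 to 206, ureteric bud sums from 1002 to 4621 and 2046 to 5383, and tubule sums from 2498 to 9276 and 4420 to 10838. Their part in the ribosomal protein levels was not tested.

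Levels per length differed widely among the 77 genes. In normalised reads per kilobase of transcript in the controls, the highest large subunit levels were those of Rpl41, a very short peptide (114152), Rplp1 (107171) and Rpl23a (99436). In the small subunit these were Rps12 (101360), Rps4x (88335) and Rps9 (81708). The lowest levels in the large subunit were those of Rpl34 (226), Rpl7l1 (5012), a nucleolar relative of Rpl7, and Rpl22l1 (17970), a relative of Rpl22. In the small subunit they were Rps27l (7358), a relative of Rps27 that p53 is known to induce, Rps20 (10787) and Rps3 (29204). The level of Rps20 rests on a transcript model of 3706 bases.

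Some genes near the minimum share much of their sequence with near-copies. Rpl34 was just inside the minimum, at 102.9, 97.2, 116.9 and 117.2 normalised reads in controls and 111.8, 117.8, 121.8 and 153.6 in mutants, and 50.6% of its 50-base stretches occur in other annotated genes. Its difference of 0.21 (SE 0.14, adjusted p = 0.415) is therefore uncertain. Just outside was Rps27, at 68.9, 61.9, 72.0 and 80.7 in controls and 75.8, 74.2, 54.4 and 82.5 in mutants, with 98.6% of its stretches in Rps27rt and other genes. Rpl30 (32.4 to 50.5 in controls and 36.2 to 53.9 in mutants, named after its values were seen) shares 76.4%. Rpl3l, a muscle form, was at 2.09 to 6.87 in controls and 2.78 to 6.63 in mutants, and shares 0.0%. Among genes well above the minimum, Rpl7l1 shares 12.2% and Rps27l 22.4%, while the abundant Rpl10 shares 92.1% and Rps12 90.1%. The part of shared sequence in the low counts was not tested. Rps6 shares 84.6% and had 53743 ± 3246 normalised reads in controls (SD, n = 4).

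By disease and place in the ribosome, no group had a called gene. Of 17 tested genes whose loss is known from Diamond-Blackfan anaemia 0 were called, 3 had an unadjusted p under 0.05 on the lower side, and their median was -0.12. The 4 genes near the decoding centre (Rps23, Rps15, Rps16 and Rps18) had a median of -0.09. Both medians lie close to the -0.11 of the whole set. The stalk, at -0.24, and the 5S particle, at 0.11, lay farther from it, but with 3 and 2 genes, and these lists were chosen with earlier results known.

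Of the genes that work with the ribosome, few were called, against the 5.4% of all tested genes called higher and 3.03% lower. Of 9 tested elongation factors 0 were called, with a median of -0.07. Of 40 initiation factors 3 were called higher and 0 lower, a share near that of all tested genes. Eif6, which keeps free large subunits from joining small ones, rose 1.24-fold (adjusted p = 0.0315), with a mean of 3268 ± 253 in controls against 4040 ± 340 in mutants (SD, n = 4). Eif1b, a relative of the start-site selection factor Eif1, rose 1.23-fold (adjusted p = 0.0262), and the cap-binding protein Eif4e rose 1.15-fold (adjusted p = 0.0372). These 3 calls held in 13, 13 and 9 of 22 other settings. Those of Eif1b and Eif6 ended when control 2, control 4, mutant 1, mutant 2 or mutant 4 was left out (the highest adjusted p was 0.0784 and 0.0968). Eif6 and Eif1b also have antisense genes (Gm16098 and D830035M03Rik), whose reads cannot be told apart from theirs. The call of Eif4e was lost without any 1 library other than control 1 and mutant 1 (up to 0.126).

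Among 19 other messages with a terminal oligopyrimidine tract, Hnrnpa1 rose (log2 0.32, adjusted p = 0.0200) and Vim, an intermediate filament protein, fell (log2 -0.58, adjusted p = 0.00358), and their median was -0.07. Of 20 genes of RNA polymerase I and its factors, Cd3eap, a subunit of that polymerase, rose 1.34-fold (adjusted p = 0.00333, with Ercc1 antisense to it and its reads not separable) and Polr2k, a subunit shared by the nuclear polymerases, rose 1.19-fold (adjusted p = 0.0408). Of 81 ribosome biogenesis factors 0 were called higher and 2 lower, again no more than the share of all tested genes. These were Rcl1, a factor of early small subunit processing (log2 -0.26, adjusted p = 0.0452), and Nolc1, a nucleolar chaperone of small ribonucleoproteins (log2 -0.20, adjusted p = 0.0459). At an unadjusted limma p under 0.05, 18 of the 81 biogenesis factors were lower and 1 higher. Of all tested genes, 11.2% were lower and 12% higher at that threshold. The calls of Vim and Cd3eap held in 21 of 22 other settings each, Hnrnpa1 in 12, Polr2k and Nolc1 in 9 and Rcl1 in 8. Leaving out 1 library ended the Hnrnpa1 call when that library was control 2, control 4, mutant 3 or mutant 4 (the highest adjusted p was 0.0722) and the Polr2k call without any but mutant 1 or mutant 3 (up to 0.122). The Nolc1 call was lost without any but control 1 or mutant 1 (up to 0.128), and the Rcl1 call without any but control 1 (up to 0.135).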

How the data were processed

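STAR 2.5.3a, DESeq2 1.18.1 and mm10 are named in the submitters' processing notes, with counter, annotation and strand use not given in the sources used here. Per the file headers and the values, the deposited library columns are a signal, reads per gene over size factors. They were divided by the same 8 factors again, recycled down the genes. Undoing this gave whole reads that rebuild the deposited mean (relative tolerance 1e-09) in 20254 of 20254 genes, and values divided once were used. The deposited table also holds the authors' log2 fold changes and p-values, used as an alternative, and a Wald score that was not used, all per the file headers.

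Tests covered the 15381 genes that reached 10 normalised reads in 4 or more libraries, on log2(value + 1), with limma 3.58.1 in R 4.3.3 (trended, robust variances, all 8 libraries in 1 fit without covariates). The p-values, each two-sided, were Benjamini-Hochberg adjusted over all of them, and a gene was called under 0.05. Fold changes understate low genes. The fit was tested on simulated data. Alternatives were other scalings, pseudocounts and filters, limma-voom, a replicate block, library weights, plain variances, left-out libraries and the authors' table, and, chosen after seeing the data, the deposited values as they are and the libraries centred on short or on ribosomal protein genes. Positions and lengths come from GENCODE M21 (mm10), found for 19435 genes. Shared sequence is the percent of a transcript's 50-base stretches found in another gene's transcripts.

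The ribosomal protein genes and the other lists were chosen with earlier results of these data known. Named genes are Vhl and the called members, or else the 4 with the smallest adjusted p per subunit. Added were the 3 highest and lowest per length, those at the minimum, and the stalk, 5S and left-out gene lists. The rest are Rps6, Rps19, Rpl13a, Rps27a, Rpl10, Rps4x and called genes of the other lists, up to 4 each. Some of these genes are not reported here.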

Additional observations from a re-analysis of the deposited data

Results flagged for a closer look

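In 6 cases 1 library stood apart from the other 3 of its group of 4, with a gap to the nearest over 0.829 of the group's range; chance gives this in about 1 in 20 groups, or 4.9 of the 98 groups examined, so the number is close to that from chance. Mutant 3 was the lowest mutant for Rps4x (73398 normalised reads), Rpl10 (50430), Gnb2l1 (59272) and Cd3eap (1735). Control 1 was the lowest control for Eif6 (2893). Control 2 was the highest control for Polr2k (1127), whose other controls lay between 1097 and 1101. Mutant 3 and control 1 are also the libraries in which ribosomal protein transcripts as a whole were lowest of their group.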

How the results depend on the processing

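Of all tested genes, 831 were called higher and 466 lower. The replicate block gave 550 and 216, with Rps14 (1 gene) called higher, and same-numbered libraries did not deviate together (correlations 0.21, -0.14, -0.14 and 0.06, none the best for its number). Library quality weights gave 1622 and 1374, with 13 large and 9 small subunit genes lower (background 8.93%). Without control 3 and mutant 2 the counts were 541 and 223, and on the deposited values as they are 538 and 160, with no ribosomal protein gene called in either. Centring on short genes gave 721 higher and 212 lower, with 2 large and 2 small subunit genes among them, and centring on the ribosomal protein genes 629 higher and 89 lower and 1 large subunit gene higher. The authors' table gave 810 lower, with 2 large and 3 small subunit genes. The causes were not tested. Leaving out 1 library gave 541 to 913 higher, 231 to 652 lower, 0 to 7 large and 0 to 6 small subunit genes lower, 0 to 1 small subunit gene higher, and medians from -0.17 to -0.06 and -0.18 to -0.06.

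Small estimates changed sign. Leaving out 1 library at a time gave -0.08 to 0.08 for Rpl41, -0.06 to 0.05 for Rps3, -0.06 to 0.05 for Rpl13a, -0.04 to 0.05 for Rps27a and -0.07 to 0.13 for Rps27. Without control 3 and mutant 2, Rps3 was -0.02, and Rpl13a, Rps27a and Rps27 were -0.01 each, as was Rps27 by limma-voom. Rpl36al was 0.01 centred on short genes and 0.04 centred on the ribosomal protein genes, where Rps19 was 0.01. The Vhl call held in all 22 settings. Low read numbers limit Rpl34, Rps27, Rpl30 and Rpl3l.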
